A study of Mus musculus with 2 samples.

Results

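The 34 genes described here belong to the type I interferon response. They were listed by name from known interferon-stimulated genes, and all 34 were found among the 18920 genes of the deposited tables. The list was made with earlier results of these data known, so counts of its members below are descriptions and not independent support. The tables hold 2 single-cell RNA libraries of aortic root and ascending aorta, 1 from mice given GLPG0187, an inhibitor of integrin αv, and 1 from mice given vehicle. All animals carried the Fbn1C1041G/+ genotype, a fibrillin-1 mutation that models Marfan syndrome, so neither library is a wild-type control. Dosing was daily from week 6 to week 16, and the aortas were taken at 16 weeks of age. Each library pools tissue of male and female mice in equal numbers, digested with Liberase and elastase, sorted to remove debris and prepared as 10x Genomics Chromium 3′ libraries (version 3). How many mice went into a pool is not stated in those labels. Each group thus has 1 library, a difference between the libraries has no replicate check, and no test was run.

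Type I interferons are cytokines that cells release after sensing foreign or misplaced nucleic acid. They bind the receptor pair Ifnar1 and Ifnar2, whose kinases Jak1 and Tyk2 act on transcription factors such as Stat2. Stat2 and Irf9 take part in a complex that binds interferon-stimulated response elements near its target genes. The targets include the RNA sensors and the factor Irf7, which feed the response, effectors such as the IFIT proteins, Rsad2 and Mx1, and brakes such as Usp18. In the arterial wall macrophages and endothelial cells are among the cell types known to respond to interferon.

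The element bound by that complex is a repeat of GAAA spaced by a pair of bases, and it was looked for at the members' start sites. The motif searched was GAAA, any 2 bases (NN) and GAAA again, or its reverse complement TTTC, NN and TTTC, on both strands and with overlaps allowed. Each window ran from 250 bases before to 50 bases after a RefSeq gene start (build GRCm38.p6). Of the 34 members 26 had a window, and 13 of these 26 (50%) held at least 1 match, against 3.99% of the 27025 genes with a window. The 8 members with no entry were Parp14, Mx1, Rtp4, Ifi204, Ifi27l2a, Zbp1, Dhx58 and Usp18. The 13 with a match were Isg15, Rsad2, Ifit1, Ifit3, Ifit3b, Bst2, Ifitm3, Oas1a, Stat2, Ifih1, Ddx58, Eif2ak2 and Trim30a. A match is a run of letters and not a shown binding site.

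The stretch from 200 to 31 bases before the start is shown for 6 members whose values are described in detail below, 5′ to 3′ on the strand of the gene, with motif matches in capitals.
Isg15: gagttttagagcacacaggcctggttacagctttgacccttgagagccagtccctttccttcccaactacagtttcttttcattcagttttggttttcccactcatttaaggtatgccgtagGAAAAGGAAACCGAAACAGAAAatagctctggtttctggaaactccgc
Rsad2: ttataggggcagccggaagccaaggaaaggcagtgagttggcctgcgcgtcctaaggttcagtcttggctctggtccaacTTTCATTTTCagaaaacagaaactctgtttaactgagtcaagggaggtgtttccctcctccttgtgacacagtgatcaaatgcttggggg
Ifit1: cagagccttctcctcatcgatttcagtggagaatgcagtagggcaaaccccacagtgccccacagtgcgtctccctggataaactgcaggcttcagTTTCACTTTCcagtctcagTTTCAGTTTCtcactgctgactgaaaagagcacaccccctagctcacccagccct
Ifit3: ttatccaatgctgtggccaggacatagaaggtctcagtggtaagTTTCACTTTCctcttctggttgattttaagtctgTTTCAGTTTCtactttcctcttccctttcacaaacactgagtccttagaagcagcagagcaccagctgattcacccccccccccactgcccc
Ifit3b: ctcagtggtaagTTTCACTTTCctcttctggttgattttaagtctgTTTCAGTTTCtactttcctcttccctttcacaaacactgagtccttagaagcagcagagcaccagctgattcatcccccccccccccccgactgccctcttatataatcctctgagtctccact
Bst2: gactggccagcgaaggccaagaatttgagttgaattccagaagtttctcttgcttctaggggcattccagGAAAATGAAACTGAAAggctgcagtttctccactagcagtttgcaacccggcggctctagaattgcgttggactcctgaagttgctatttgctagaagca
The Isg15 stretch (chr4:156200849-156201018, minus strand) holds 3 overlapping matches, which begin 78, 72 and 66 bases before the start. The Bst2 stretch (chr8:71537503-71537672, minus strand) holds a pair of overlapping matches. Ifit1 (chr19:34640689-34640858, plus strand), Ifit3 (chr19:34583329-34583498, plus strand) and Ifit3b (chr19:34607757-34607926, plus strand) each hold TTTCACTTTC and TTTCAGTTTC. The Rsad2 stretch (chr12:26456483-26456652, minus strand) holds a single match, TTTCATTTTC, 120 bases before the start. Ifit3 and Ifit3b are neighbours on chromosome 19 whose transcripts share 1663 of 1700 aligned bases (97.8%), so reads could be split between them and each value of this pair is uncertain.

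After removal of called doublets 4349 cells (GLPG0187) and 2945 cells (vehicle) were used. The deposited values are whole numbers corrected for depth. They sum to between 12078 and 16719 in every cell, with a median of 3773 and 3788 genes above 0 per cell. Below, a mean is the mean deposited value per cell, a share is the percentage of cells above 0, and paired numbers give the GLPG0187 library first. The 5 barcodes found in both libraries are a small part of either. Cells were clustered without the member genes and named "X-like" from markers: 341 and 182 macrophage-like, 161 and 104 endothelial-like, 1035 and 856 fibroblast-like, 172 and 197 cartilage or valve-like and 1690 and 847 smooth muscle cell (SMC)-like cells. A further class of 911 and 710 mesenchymal cells was marked by Prss35 and Tbx20. The remaining cells, 14 and 7 dendritic-like and 25 and 42 Schwann or pigment-like ones, were too few to be described in the same way, and the 6 classes below leave them out. The macrophage-like cells carried the lineage's defining markers, with Csf1r above 0 in 95.4% of them and in 2.07% of other cells.

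Among the 6 classes the mean of most members was highest in macrophage-like or endothelial-like cells. In the GLPG0187 library the mean was highest in macrophage-like cells for 27 members and in endothelial-like cells for the other 7. In the vehicle library macrophage-like cells were highest for 17 members, endothelial-like and mesenchymal cells for 8 each, and cartilage or valve-like cells for 1, Isg20. The 8 members that were highest in mesenchymal cells of the vehicle library were Ifit1, Ifit2, Ifit3, Ifit3b, Isg15, Cmpk2, Ddx58 and Herc6, and all 8 were highest in macrophage-like cells of the GLPG0187 library. SMC-like cells had the lowest mean for 31 members (GLPG0187) and for 28 (vehicle), although their median number of genes per cell (4020.5 and 4137) was above that of macrophage-like cells (3180 and 3054). The few dendritic-like cells were not ranked, and their mean sum over 14 core members, listed further on, was 8 and 9 per cell, against 36.0 and 6.14 in macrophage-like and a vehicle value of 3.17 in endothelial-like cells. Of these dendritic-like cells the share above 0 was higher in the GLPG0187 library for 14 of the 34 members.

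**Figure D1:**
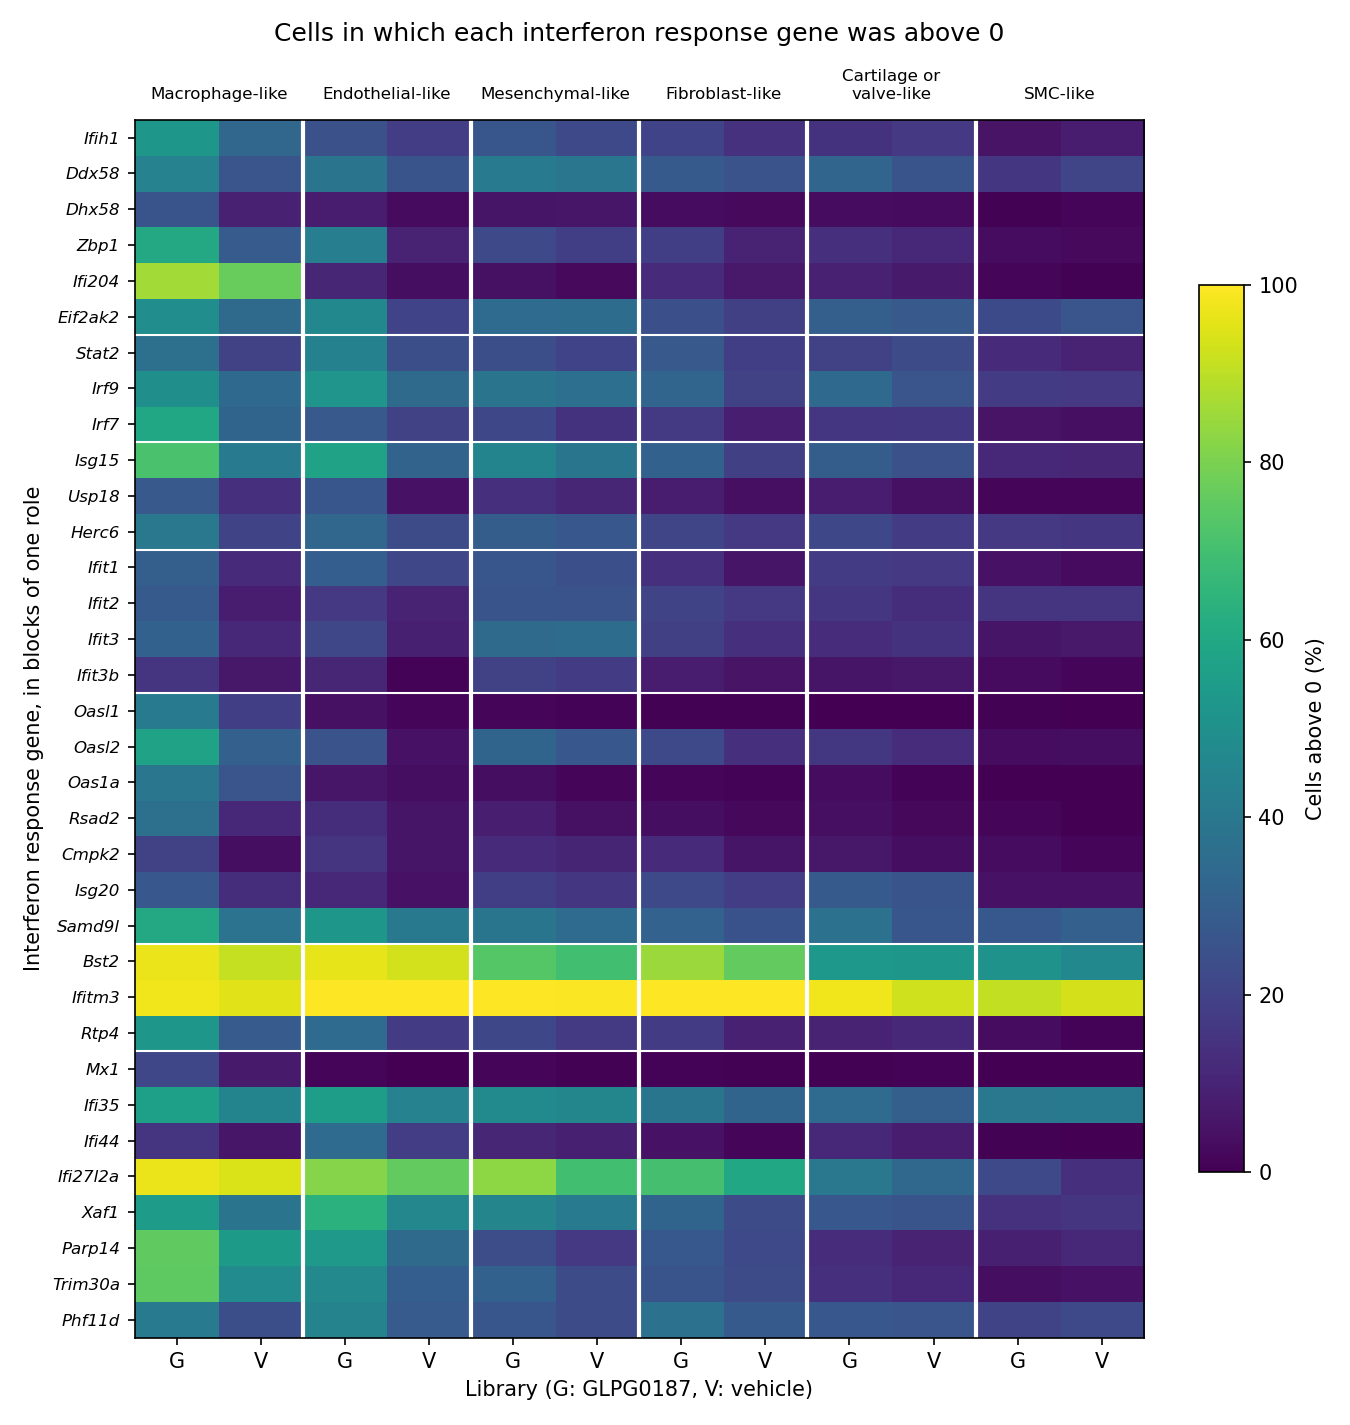
Percentage of cells above 0 (colour scale, 0 to 100%) for each of the 34 members (rows, in blocks of one role) in 6 cell classes, with the GLPG0187 library (G) beside the vehicle library (V). Bst2, Ifitm3 and Ifi27l2a are bright in most classes, and the left-hand macrophage-like column is brighter in G than in V for all 34 members.

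In macrophage-like cells all 34 members had a higher mean in the GLPG0187 library. Ratios were taken between each library's class sums, divided by the class total, with 1 added to each sum, and a gene counted as measured when its sum over both libraries reached 100. All 34 members were measured, 31 were higher in the GLPG0187 library by at least 1.5-fold, and 0 were lower by that much. Of the 6439 genes measured in this class 6.24% were higher and 3.21% lower by 1.5-fold or more. The median log2 ratio of the members was 1.47, and that of all measured genes was −0.01. The class sum in the vehicle library was under 50 for 9 of the 34, so their ratios rest on few values.

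**Figure D2:**
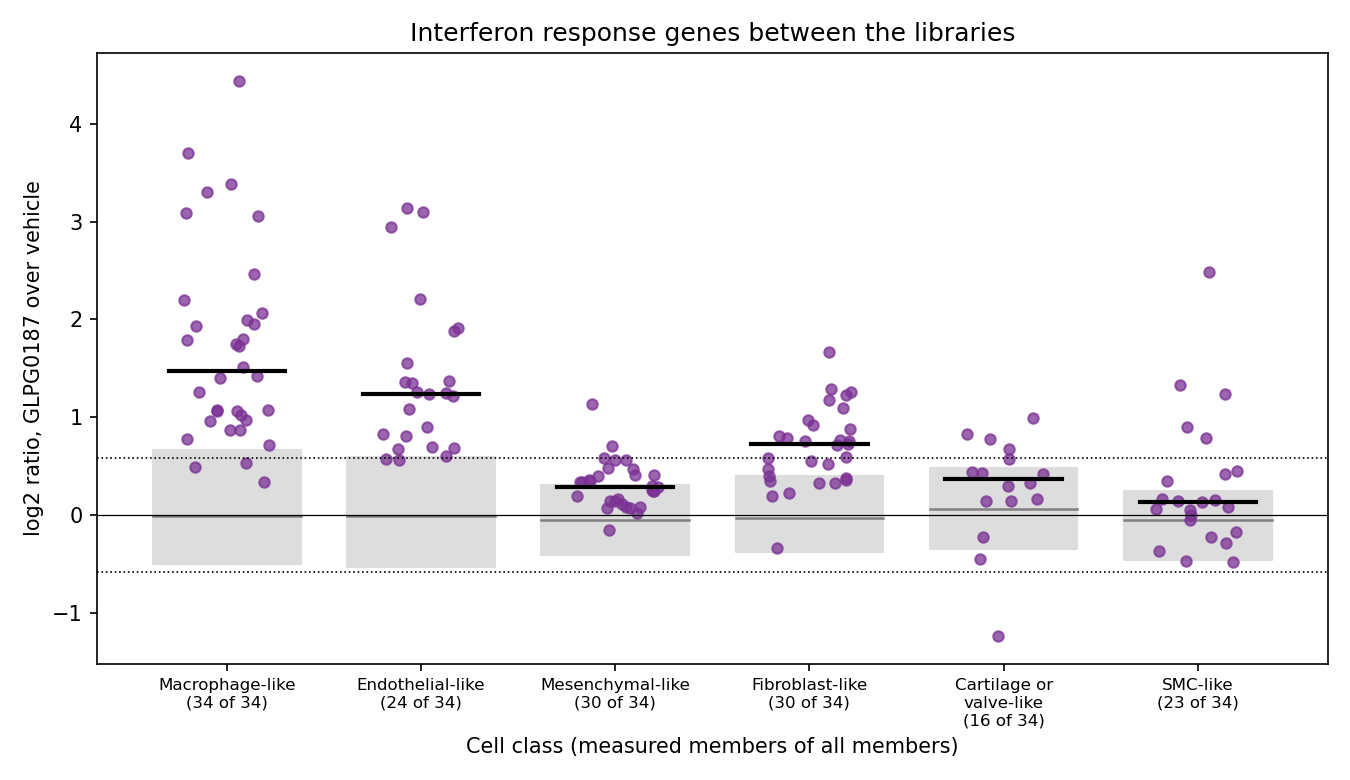
Log2 ratio of GLPG0187 over vehicle for each measured member (points) in 6 cell classes, with the members' median (black bar) and the 5th to 95th percentile and median of all measured genes (grey box and line). Dotted lines mark 1.5-fold. Macrophage-like, endothelial-like and fibroblast-like members lie mostly above the upper line, with medians of 1.47, 1.24 and 0.72.

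The sensors detect foreign nucleic acid and start the response. All 6 were at least 1.5-fold higher in macrophage-like cells of the GLPG0187 library. The mean of Ifi204, a DNA sensor of the AIM2-like family, was 6.55 and 3.08 (log2 ratio 1.06), and it was above 0 in 86.2% and 76.9% of cells. Zbp1, which binds left-handed nucleic acid, had a mean of 2.43 and 0.681 (1.80) and was above 0 in 60.4% and 28.6%. The RNA helicases Ifih1 (MDA5), Ddx58 (RIG-I) and Dhx58 (LGP2) had log2 ratios of 0.96, 1.41 and 1.79, and Eif2ak2 (PKR), a kinase that stops translation on double-stranded RNA, had 0.87.

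Among the transcription factors Irf7, which amplifies the response, had a mean of 3.30 and 0.962 (1.75). It was above 0 in 59.5% and 32.4% of macrophage-like cells, with highest single-cell values of 52 and 13. Stat2 had means of 0.669 and 0.269 (1.26). Irf9, its partner in the complex, had 0.842 and 0.566 (0.54), short of 1.5-fold, and its mean among cells above 0 was nearly the same in both libraries (1.69 and 1.66).

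The ISG15 system attaches a ubiquitin-like protein to targets. Isg15 itself had a mean of 8.77 and 2.05 (2.06) and was above 0 in 71.3% and 40.7% of macrophage-like cells. Usp18, which removes Isg15 and dampens receptor signalling, had means of 1.0 and 0.242 (1.99). The ligase gene Herc6 had 0.991 and 0.335 (1.52).

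The IFIT proteins bind foreign RNA, and as a group they had a median log2 ratio of 3.20. Ifit1 had a mean of 3.04 and 0.297 (3.30), Ifit2 of 2.34 and 0.170 (3.71) and Ifit3 of 2.95 and 0.335 (3.09). These 3 genes were above 0 in 28.2% to 31.1% of GLPG0187 macrophage-like cells and in 7.69% to 12.1% of vehicle ones. Ifit3b had means of 0.522 and 0.0879 (2.46).

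The nucleotide and RNA enzymes held the member with the highest log2 ratio. Rsad2 (viperin), an enzyme that makes a chain-terminating nucleotide, had a mean of 7.91 and 0.352 (4.44). It was above 0 in 126 of 341 cells (37.0%) and in 21 of 182 (11.5%), and the highest cell held 255 and 16. Cmpk2, a nucleotide kinase whose gene lies beside Rsad2 on chromosome 12, had means of 0.815 and 0.0714 (3.38), and only 7 vehicle cells were above 0. Oasl1, a brake on Irf7 production, had 1.61 and 0.341 (2.20), and the exonuclease gene Isg20 had 0.724 and 0.181 (1.93). Oasl2, Samd9l and Oas1a, the last a synthase of the RNA-degrading OAS pathway, had log2 ratios of 1.42, 0.97 and 0.78.

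The membrane proteins were already broad in the vehicle library. Ifitm3, which hinders fusion of virus and cell, was above 0 in 97.9% and 95.6% of macrophage-like cells, with means of 27.8 and 16.5 (0.72). Bst2 (tetherin), which holds budding virus at the surface, had shares of 97.1% and 91.2% and means of 9.23 and 6.43 (0.49). Rtp4, a chaperone of membrane receptors, was narrower, at 53.1% and 28.6% of cells and a log2 ratio of 1.73.

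Among the other members Mx1, a dynamin-like antiviral GTPase, had means of 0.792 and 0.0879 (3.06), and Ifi44 had 0.496 and 0.121 (1.95). Trim30a, Phf11d, Parp14, Xaf1 and Ifi35 had log2 ratios of 1.07, 1.07, 1.06, 1.03 and 0.87, with Parp14, an ADP-ribosyltransferase, above 0 in 75.7% and 54.4% of cells. Ifi27l2a had the lowest log2 ratio of the 34 in this class, 0.34, with means of 34.6 and 26.8 and shares of 97.1% and 94.5%.

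The difference in macrophage-like cells showed both in how many cells were above 0 and in how high those cells were. For all 34 members the share above 0 and the mean among cells above 0 were each higher in the GLPG0187 library. At least 50% of macrophage-like cells were above 0 for 15 members in the GLPG0187 library, and for 5 in that of vehicle (Bst2, Ifi204, Ifi27l2a, Ifitm3 and Parp14). The median share over the members was 46.6% and 27.5%.

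The highest values nonetheless lay in a small number of cells. For Rsad2 the 12 highest of 341 macrophage-like cells held 50% of the library's sum, and for Ifit1 and Ifit2 it was 15 cells each. For Isg15 it took 30 cells, and for Ifi27l2a and Bst2 67 and 76. Rsad2 and the IFIT genes were thus uneven among macrophage-like cells, while Bst2, Ifitm3 and Ifi27l2a were spread over nearly all of them. In the vehicle library 3 of 182 cells held 50% of the Rsad2 sum, so the unevenness was not limited to the GLPG0187 library.

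Cells with Rsad2 above 0 more often had other members above 0. Of the 126 macrophage-like cells of the GLPG0187 library with Rsad2 above 0, 63.5% had Ifit3 above 0, against 12.1% of the 215 cells with Rsad2 at 0. For Usp18 these shares were 57.1% and 10.7%, for Cmpk2 45.2% and 4.65% and for Mx1 45.2% and 7.44%. Isg15 was above 0 in 88.1% of cells with Rsad2 and in 61.4% of those without. In the vehicle library 33.3% of the 21 cells with Rsad2 and 8.70% of the 161 cells without it had Ifit3 above 0. There Ifit2 (9.52% and 7.45%) and Usp18 (23.8% and 12.4%) were closer, and Herc6 (19.0% and 20.5%) and Ifitm3 (95.2% and 95.7%) were no higher in cells with Rsad2. Over the other 33 members the share was higher in cells with Rsad2 for 32 in the GLPG0187 library, Ifi27l2a excepted, and for 31 in that of vehicle.

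To count such cells, a cell was called member-rich when at least 5 of 14 core members were above 0 (Rsad2, Ifit1, Ifit2, Ifit3, Ifit3b, Isg15, Irf7, Cmpk2, Ifi44, Oasl1, Oasl2, Oas1a, Usp18 and Mx1). This is a range on a count per cell and not a cell type, and 28 and 12 macrophage-like cells lay at 4 core members and 42 and 11 at 5. Of macrophage-like cells 152 of 341 were member-rich in the GLPG0187 library (44.6%, exact Clopper-Pearson 95% interval 39.2% to 50%). In the vehicle library 28 of 182 were (15.4%, 10.5% to 21.5%). Intervals cover counting error within a library only. At least 9 core members were above 0 in 69 cells (20.2%) and 6 cells (3.30%), and no core member was above 0 in 6.45% and 19.2%.

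**Figure D3:**
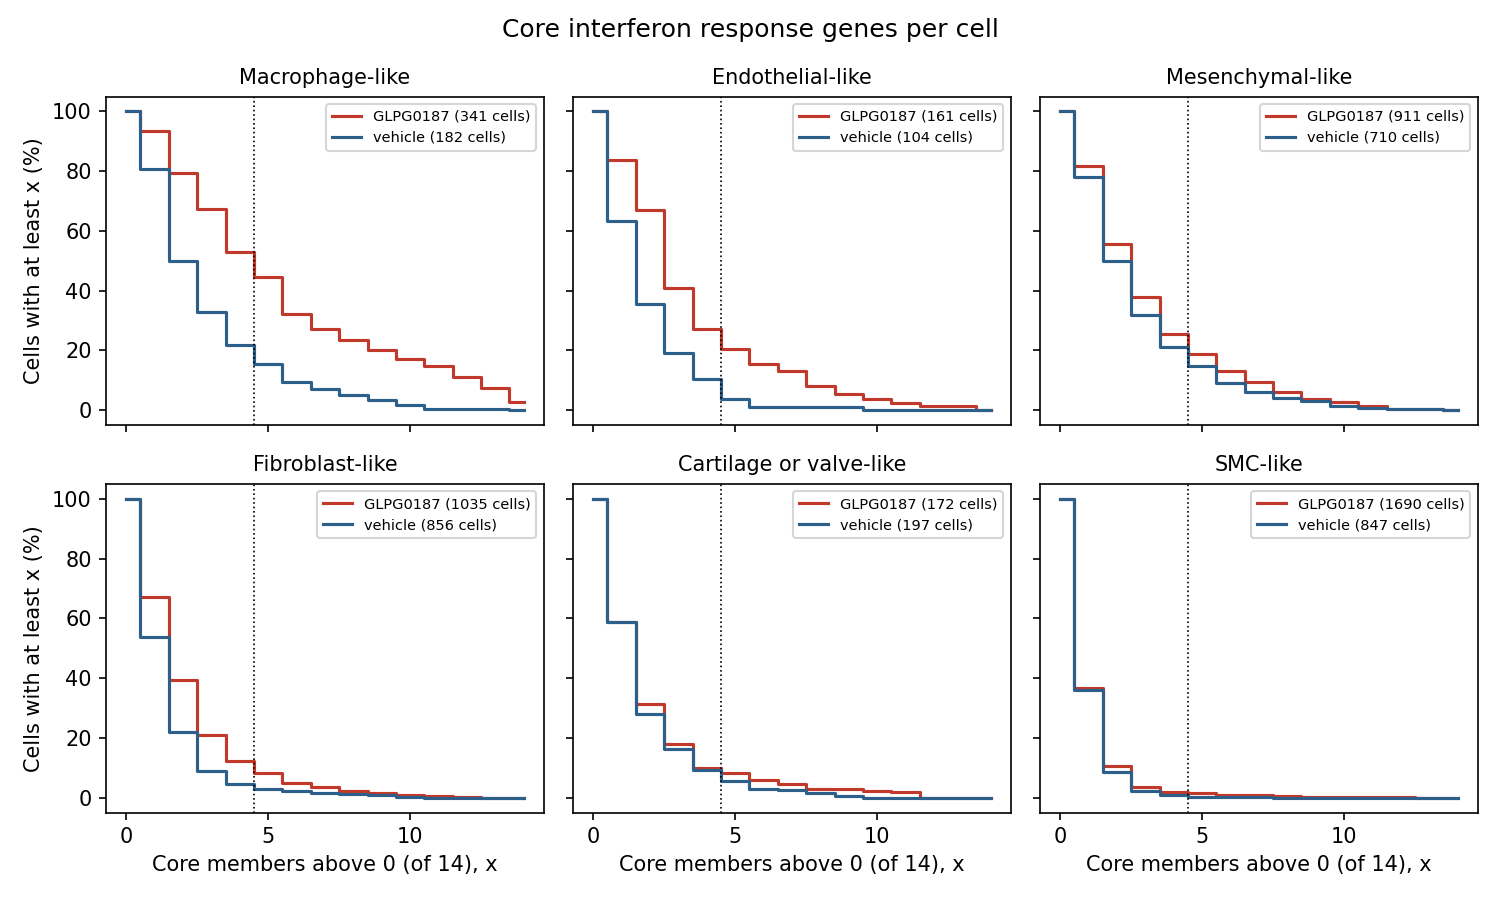
Percentage of cells (y axis) with at least x of the 14 core members above 0 (x axis) in 6 cell classes, GLPG0187 in red and vehicle in blue. The dotted line marks the member-rich range from 5 upward, where the curves of macrophage-like cells stand at 44.6% and 15.4%.

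The member-rich cells held 92.4% (GLPG0187) and 55.1% (vehicle) of the summed core value of macrophage-like cells. The mean core sum was 36.0 and 6.14 per cell over all macrophage-like cells. Outside the member-rich cells it was 4.93 and 3.25, still higher in the GLPG0187 library. Without the member-rich cells 7 of 20 measured members remained at least 1.5-fold higher, and the median log2 ratio was 0.37. Since being member-rich is counted on 14 of the same genes, that remainder is a description and lies lower by construction.

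**Figure D4:**
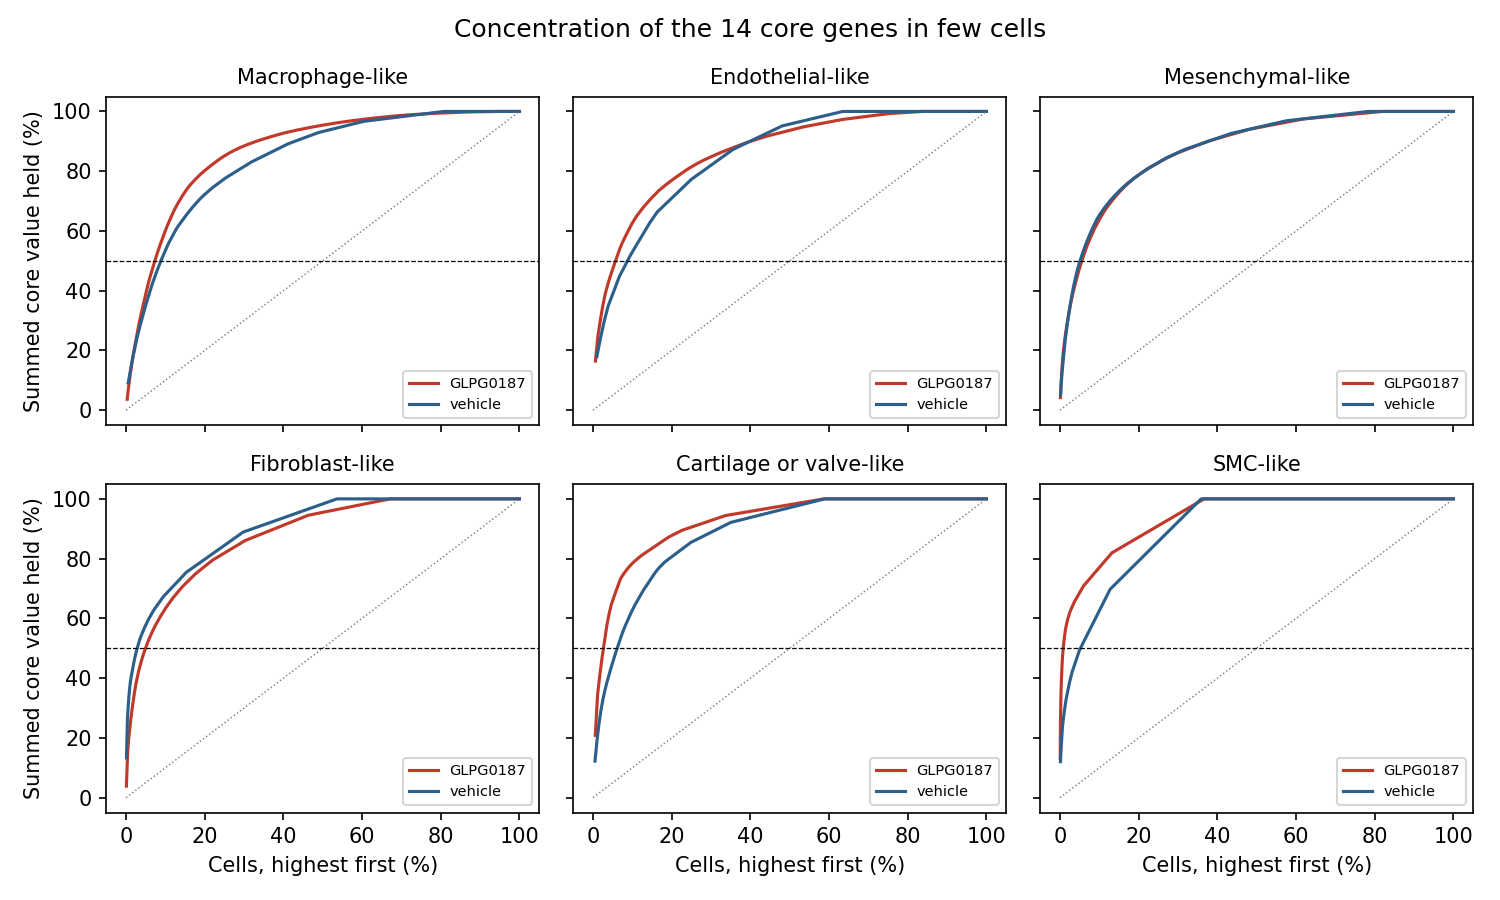
Cumulative percentage of the summed core value (y axis) held by the highest cells, as a percentage of the cells of the class (x axis), for 6 classes and both libraries. The dashed line marks 50% of the sum and the diagonal an even spread. In macrophage-like cells 7.33% and 9.34% of the cells held 50%.

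Member-rich macrophage-like cells were found on both sides of the Lyve1 and Folr2 divide, 2 genes of resident arterial macrophages. Of the cells with Lyve1 or Folr2 above 0, 34.8% and 10.2% were member-rich, and of those with both at 0, 51.5% and 20.2% were. In both subsets the share was higher in the GLPG0187 library. At least 9 core members were above 0 in 58 of 200 GLPG0187 cells with both genes at 0 and in 11 of 141 with either above 0. In the vehicle library the order was the reverse on small numbers, with 1 of 94 and 5 of 88.

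Other markers moved with the macrophage-like result. SMC markers were at least 1.5-fold higher in macrophage-like cells of the GLPG0187 library for 6 of 8 measured, with summed means of 22.2 and 10.7. Among dendritic cell markers 3 of 5 measured were higher and 1 lower (390 and 244), and among cycling markers 3 of 5 were higher (3.67 and 2.32). The dendritic list was Flt3, Cd209a, Ccr7, Xcr1, Clec9a, Cd74, H2-Aa, Itgax and Klrd1. It thus includes the MHC class II genes Cd74 and H2-Aa, and its sum does not by itself show dendritic cells. The macrophage markers themselves had 1 of 10 higher (361 and 368), and genes induced by cell handling had 0 of 15 higher and 2 lower (87.3 and 93.9). Without cells holding the SMC gene Myh11, 30 of 33 measured members were at least 1.5-fold higher (median log2 ratio 1.61). The part of the dendritic and cycling markers in the result was not tested.

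In endothelial-like cells all 34 members again had a higher mean in the GLPG0187 library, and 24 were measured. Of these 22 were higher by at least 1.5-fold and 0 lower, with a median log2 ratio of 1.24. Of the 4881 genes measured in this class 5.18% were higher and 3.67% lower by that size, with a median of −0.01. Vehicle sums were under 50 for 13 of the 24, a thinner base than in macrophage-like cells.

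Over all endothelial-like cells Rsad2 was again among the highest ratios, but the sensor Zbp1 and the OAS-like gene Oasl2 stood beside it. The mean of Oasl2 was 0.596 and 0.0577 (3.14), and that of Zbp1 was 1.19 and 0.144 (2.94), with Zbp1 above 0 in 42.9% and 9.62% of cells. Rsad2 had means of 1.34 and 0.144 (3.11), and only 2 of the 161 GLPG0187 cells held 50% of its sum. Isg15 had 3.99 and 1.04 (1.91), Ifit1 1.32 and 0.50 (1.36), Ifit2 0.807 and 0.163 (2.21) and Ifit3 0.640 and 0.163 (1.88). Zbp1 thus lay in many endothelial-like cells and Rsad2 in very few. The Rsad2 means were 2.04 and 0.269 in the 50 and 26 cells with Xist and no Y-linked gene above 0. In the 82 and 56 cells with the reverse pattern they were 0.134 and 0.143, so Rsad2 was not higher there.

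All 3 transcription factors were at least 1.5-fold higher in endothelial-like cells, with Stat2 at 0.888 and 0.337 (1.35), Irf7 at 0.758 and 0.346 (1.08) and Irf9 at 1.25 and 0.654 (0.90). Of the sensors Eif2ak2 had 1.06 and 0.346 (1.56) and Ddx58 0.665 and 0.404 (0.68). The effectors Phf11d, Parp14, Ifi44, Trim30a and Rtp4 had log2 ratios between 1.21 and 1.37. Herc6, Ifi27l2a, Bst2, Ifi35 and Samd9l had 0.83, 0.80, 0.69, 0.68 and 0.60. Ifitm3, above 0 in every endothelial-like cell of both libraries, had means of 51.7 and 34.5 (0.56), and with Xaf1 (0.57) it was just short of 1.5-fold. The 10 members not measured here were Ifit3b, Usp18, Isg20, Oas1a, Oasl1, Cmpk2, Mx1, Dhx58, Ifih1 and Ifi204.

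Of endothelial-like cells 33 of 161 (20.5%, 14.5% to 27.6%) and 4 of 104 (3.85%, 1.06% to 9.56%) were member-rich. At least 50% of cells were above 0 for 9 members and for 3. A cluster led by Fabp4, Gpihbp1 and C1qtnf9 had 43.5% of 23 and 12.5% of 24 cells member-rich. The cluster led by Nts, Mmrn1 and Clca3a1, which holds lymphatic markers, had 16.7% of 138 and 1.25% of 80. It may not be lymphatic alone. With finer clusters (resolution 1.0) 85 and 55 endothelial-like cells were led by Ccl21a, Mmrn1 and Nts, and 53 and 25 by Gkn3, Vwf and Klk10. Member-rich shares of these finer clusters were not taken. The endothelial markers had 0 of 9 past 1.5-fold (64.6 and 65.0). Lymphatic endothelial markers were higher for 2 of 7 (60.1 and 43.4), modulated SMC markers for 4 of 10 measured and lower for 1 (54.1 and 32.8). Fibroblast markers were higher for 2 of 7 measured (42.3 and 25.8), and handling genes were lower for 6 of 15 (79.3 and 109). Dendritic markers were higher for 2 of 2 measured (17.4 and 1.63). Flt3, Cd209a, Ccr7, Itgax and Klrd1 were at 0 in both libraries, so that sum came from Xcr1, Clec9a, Cd74 and H2-Aa. The part of these marker lists and of the handling genes in the result was not tested. Macrophage markers summed to 0.677 and 0.481 in this class, and without cells holding at least 2 of them 21 of 23 measured members were higher. By the share of cells above 0 the count was 13 of 24, and with sums of at least 300 it was 4 of 6.

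In fibroblast-like cells 30 members were measured, 17 were higher by at least 1.5-fold and 0 lower, against 2.54% and 1.15% of the 10191 genes measured there. The median log2 ratio was 0.72 for the members and −0.03 for all genes. The mean of Ifit1 was 0.502 and 0.157 (1.67), that of Zbp1 0.282 and 0.114 (1.29) and that of Irf7 0.342 and 0.141 (1.26). Rtp4 (1.23), Ifi204 (1.18) and Ifi44 (1.10) followed.

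The broad members differed here as well. Bst2 had means of 4.62 and 2.43 (0.92) and shares of 85.1% and 76.2% of fibroblast-like cells, and Ifi27l2a means of 13.0 and 7.03 (0.88) and shares of 70.4% and 59.6%. All 3 transcription factors were higher, Stat2 at 0.78, Irf9 at 0.73 and Irf7 as above. The remaining 7 of the 17, Usp18, Cmpk2, Isg15, Ifit3, Xaf1, Oasl2 and Ifih1, lay between 0.59 and 0.97. Rsad2 went the other way in this class, with means of 0.0860 and 0.109 (−0.34), and a single vehicle cell with a value of 73 held over 50% of the vehicle sum. Its share of cells above 0 was higher in the GLPG0187 library, 3.86% against 1.99%. Member-rich cells made up 84 of 1035 (8.12%, 6.52% to 9.95%) and 26 of 856 (3.04%, 1.99% to 4.42%). Handling genes summed to 164 and 131 in fibroblast-like cells, with 2 of 15 at least 1.5-fold higher and 1 lower, and dendritic markers to 0.817 and 0.232, with 2 of 2 measured higher. Their part was not tested.

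The mesenchymal cells marked by Prss35 and Tbx20 carried the members in both libraries. Member-rich cells were 172 of 911 (18.9%, 16.4% to 21.6%) and 104 of 710 (14.6%, 12.1% to 17.5%), so in the vehicle library their share was near that of macrophage-like cells. Of 30 measured members 2 were at least 1.5-fold higher and 0 lower, against 1.6% and 1.54% of 10329 genes. The median log2 ratio was 0.29, and that of all genes −0.05. The 2 were Rsad2, at 0.256 and 0.117 (1.13), and Parp14, at 0.358 and 0.221 (0.70). Isg15 had means of 2.40 and 2.25 (0.11), Ifit1 of 1.2 and 1.06 (0.20) and Ifit3 of 1.40 and 1.11 (0.36). These 3 genes, far apart between the libraries in macrophage-like cells, were close in this class as a whole. The mix of sexes differed between the libraries, with 207 and 258 cells with Xist and no Y-linked gene above 0, and 610 and 384 with the reverse pattern. The means of the whole class thus average unlike mixes. In the former cells Isg15 had 3.16 and 1.45, Ifit1 1.92 and 0.678 and Ifit3 1.5 and 0.752. There 11 of 25 measured members were at least 1.5-fold higher. In cells with the reverse pattern Isg15 had 2.23 and 2.78, Ifit1 1.07 and 1.37 and Ifit3 1.44 and 1.42, and 1 of 29 was higher. The core value was uneven in both libraries, with 50% of it in 5.60% and 5.21% of the cells. Erythroid markers were at least 1.5-fold higher for 3 of 3 measured in this class (summed means 4.56 and 0.0155) and macrophage markers for 2 of 2 (0.970 and 0.411). Their part in the values was not tested.

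In cartilage or valve-like cells 16 members were measured, 4 were at least 1.5-fold higher and 1 lower, against 2.57% and 1.38% of 6149 genes. The median log2 ratio was 0.37, that of all genes 0.07. Ifit1 (0.942 and 0.472, 1.0), Ifit3 (0.506 and 0.284, 0.83), Isg15 (1.40 and 0.817, 0.77) and Ifi27l2a (5.93 and 3.73, 0.67) were the higher ones. In the GLPG0187 library 2 of 172 cells held 50% of the Ifit1 sum, and with each value held to at most 3 per cell its log2 ratio was −0.092 and that of Ifit3 −0.021. The lower one was Irf7, at 0.320 and 0.766 (−1.24), although it was above 0 in nearly equal shares of cells, 15.7% and 16.2%. The Irf7 difference therefore lay in the values of the positive cells, 2.04 and 4.72 on average. Member-rich cells were 8.14% of 172 (4.52% to 13.3%) and 5.58% of 197 (2.82% to 9.77%). With finer clusters (resolution 1.0) the class held 158 and 167 cells, member-rich cells were 1.90% and 1.80% of them, and Isg15 stood at −0.77, so these values depend on how finely the cells were clustered. A separate unnamed cluster of 42 and 29 cells was then led by Hp, Saa3, Lcn2, Spp1, Cxcl5 and Chil1. Chil1, Spp1 and Lcn2 were also among the leading genes of the class at resolution 0.5. The values above may thus not be those of cartilage or valve-like cells alone, which was not tested.

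The SMC-like cells, the most numerous class, held little of the response. Ifitm3 in both libraries, and Bst2 in that of GLPG0187, were the only members above 0 in at least 50% of these cells. Of 23 measured members 5 were at least 1.5-fold higher and 0 lower, against 0.547% and 2.62% of 10779 genes, and the median log2 ratio was 0.13, that of all genes −0.05. The 5 were Ifit3b (0.0917 and 0.0153, 2.48), Ifit1 (0.157 and 0.0614, 1.33), Ifit3 (0.208 and 0.0874, 1.24), Irf7 (0.0982 and 0.0519, 0.90) and Ifi27l2a (0.995 and 0.577, 0.79). The class sum in the vehicle library was under 50 for 4 of the 23, Ifit3b and Irf7 among them. Their ratios, including the highest one, that of Ifit3b, thus rest on few vehicle values.

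The Ifit3 sum of SMC-like cells lay in very few cells. In the GLPG0187 library 3 of 1690 cells held 50% of the Ifit3 sum, and 1 cell held 94 of 351. The share of cells above 0 for Ifit3 was 5.74% and 6.73%, lower in the GLPG0187 library. Of the summed core value 50% lay in 14 cells (0.828%), against 44 of 847 vehicle cells (5.19%). Member-rich cells were 24 of 1690 (1.42%, 0.912% to 2.11%) and 2 of 847 (0.236%, 0.0286% to 0.850%). Without them Ifit1, Ifit3 and Irf7, which are among the genes that define these cells, turned to −0.22, −0.69 and −0.047, and the median log2 ratio of the members was −0.17. Ifi27l2a kept a log2 ratio of 0.69 without these cells and 0.72 by the share of cells above 0 (22.1% and 13.3%). Ifit3b had 1.38 with each value held to at most 3, again on few vehicle values. SMC-like cells came from a cluster led by Myh11 and Mylk4 (1286 and 521 cells) and one led by Tnnt2 and Pln (404 and 326), with 0.933% and 0% member-rich in the first and 2.97% and 0.613% in the second. Modulated SMC markers were lower for 6 and higher for 1 of 12 (29.1 and 40.2), and cardiomyocyte markers lower for 4 of 6 measured (7.87 and 10.1). Their part in the values was not tested. Rsad2 was above 0 in 28 and 2 SMC-like cells, and Mx1 in 6 and 0.

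The pools mix both sexes, and cells could be split by Xist, the transcript of the silenced X, and by Y-linked genes. Among macrophage-like cells 42 and 37 had Xist and no Y-linked gene above 0, and 241 and 119 the reverse. Member-rich cells were 50% (34.2% to 65.8%) and 13.5% (4.54% to 28.8%) of the Xist-only cells. They were 45.2% (38.8% to 51.7%) and 17.6% (11.3% to 25.7%) of the Y-only cells, so the GLPG0187 share was the higher one among cells of either sex. The means of 33 members were higher in Xist-only cells of the GLPG0187 library and those of all 34 in Y-only cells. The exception was Ifi27l2a, at 29.2 and 31.1 in Xist-only cells. The size of the Rsad2 difference was unlike between the sexes, at 1.45 and 0.162 in Xist-only and 9.95 and 0.479 in Y-only cells. The summed core value was also unlike, at 14.8 and 4.57 in Xist-only and 41.8 and 7.05 in Y-only cells. These contrasts were not tested. Among Xist-only cells only 7 members were measured, 3 of them at least 1.5-fold higher.

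In other classes the difference between the libraries was also unlike in Xist-only and Y-only cells, which was not tested. Of the mesenchymal cells 21.3% and 10.1% of Xist-only and 19.0% and 18.2% of Y-only cells were member-rich. The summed core value was 10.1 and 4.61 in Xist-only mesenchymal cells and 7.62 and 8.10 in Y-only ones. Of Xist-only fibroblast-like cells 10.4% and 2.30% were member-rich and of Y-only ones 7.68% and 4.26%, and Ifit3 was lower in the GLPG0187 library among Y-only fibroblast-like cells (0.397 and 0.482) and higher among Xist-only ones (1.05 and 0.256). For endothelial-like cells the shares were 24.0% of 50 and 0 of 26 Xist-only cells, where 0 cells allow a share of up to 11.5% by a limit of 3 counts and 13.2% by the exact interval, and 18.3% of 82 and 3.57% of 56 Y-only cells. In Y-only SMC-like cells 19 of 34 members had the higher mean in the GLPG0187 library, and in Xist-only cartilage or valve-like cells 16 did.

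**Figure D5:**
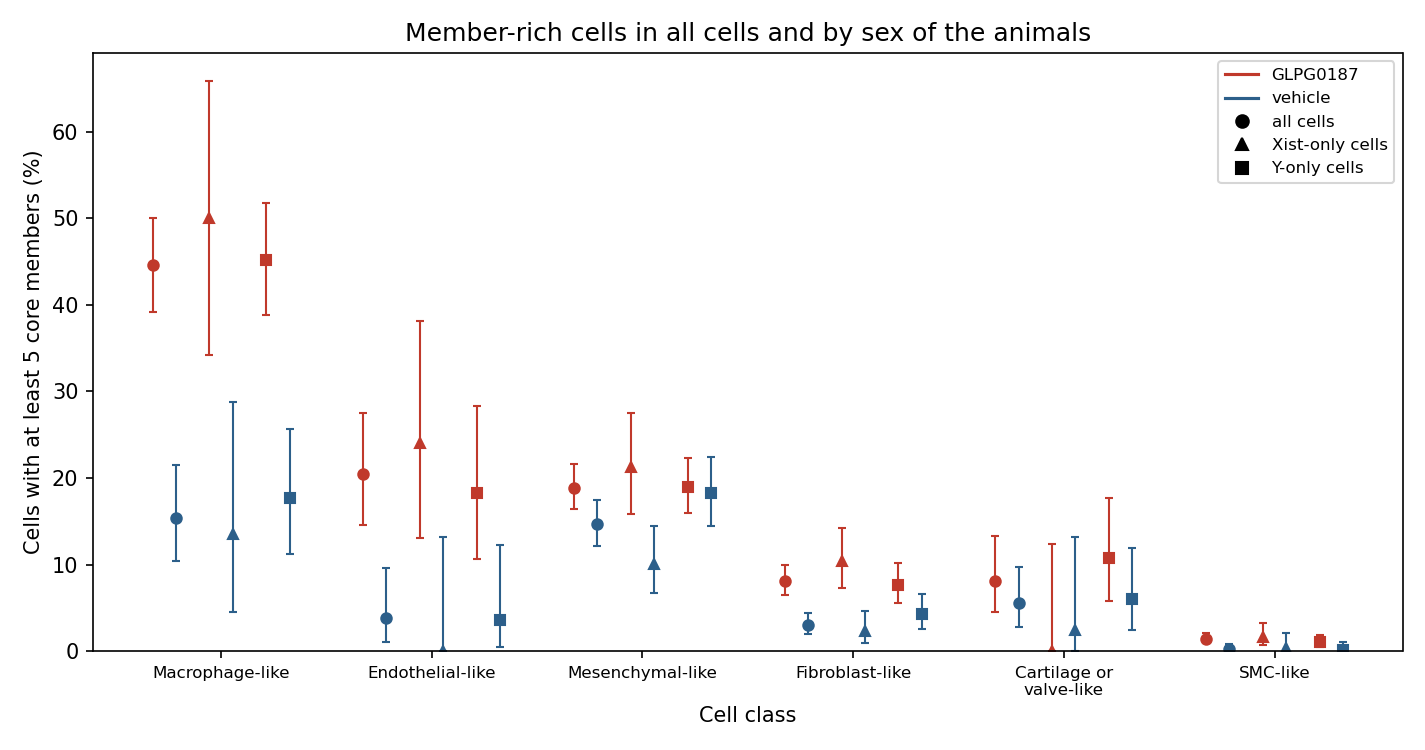
Percentage of member-rich cells (y axis) in 6 cell classes, for all cells (circles), Xist-only cells (triangles) and Y-only cells (squares), GLPG0187 in red and vehicle in blue. Bars are exact 95% Clopper-Pearson intervals. In macrophage-like cells all 3 red points stand between 44.6% and 50% and all 3 blue points between 13.5% and 17.6%.

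The genes upstream of the response were set beside it. Of 10 interferon ligand genes listed only Ifnb1 (interferon beta) was found by name in the deposited tables. The others, the interferon gamma gene Ifng among them, cannot be seen in these data. The mean of Ifnb1 in macrophage-like cells was 0.167 and 0.0275, above 0 in 6 and 4 cells with highest values of 39 and 2, too little to be measured. Of the 7 receptor and kinase genes 7 were measured in macrophage-like, 5 in endothelial-like and 6 in cartilage or valve-like cells, and none of those measured passed 1.5-fold there. In endothelial-like cells the unmeasured Tyk2 had means of 0.224 and 0.0962 and Jak2 of 0.447 and 0.260. All 7 were measured in mesenchymal, fibroblast-like and SMC-like cells, where none passed. In macrophage-like cells Ifnar1 had means of 1.06 and 1.38 (−0.41) and Ifnar2 of 1.81 and 2.03 (−0.19). Irf1, a factor of the interferon gamma response, had 1.30 and 1.49 in macrophage-like cells (−0.23) and 1.5 and 0.606 in endothelial-like cells (1.27).

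Among the genes that induce interferon 3 of 9 measured were at least 1.5-fold higher in macrophage-like cells, the cytosolic DNA sensor Mb21d1 (0.88), Tmem173 (0.74), which relays its signal, and Tlr3 (0.85). The endosomal RNA receptor Tlr7 had 0.824 and 1.19 (−0.56). Among the brakes 3 of 6 were higher, Socs1 (2.13), Samhd1 (1.17) and Adar (0.98). The GBP and IRG families, GTPases that attack intracellular microbes and respond to both interferon types, had 12 of 12 measured genes at least 1.5-fold higher in macrophage-like and 12 of 12 in endothelial-like cells, with median log2 ratios of 2.01 and 2.37. They had 12 of 13 in mesenchymal, 11 of 11 in fibroblast-like, 1 of 2 in cartilage or valve-like and 4 of 8 in SMC-like cells. In mesenchymal cells the GTPases' median was 1.24, against 0.29 for the 34 members, a contrast that was not tested. Iigp1 had means of 2.38 and 0.121 in macrophage-like cells (4.21) and 6.99 and 1.78 in endothelial-like cells (1.95).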

How the data were processed

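Single-cell RNA libraries were made from pooled aortas, 1 of GLPG0187-treated and 1 of vehicle-treated mice, grouped by the treatment label and title. The submitters' processing notes name Cell Ranger, Seurat and mm10 but give no version or role. The deposited values are treated as a score: whole numbers whose totals per cell are too even for raw counts, corrected for depth by the authors by a step that the sources used here do not give. The planned use of UMI counts and Poisson intervals was therefore dropped, raw depth is unknown, and differences in total RNA per cell cannot be seen. The members, gene lists, markers and class rules were chosen with earlier results of these data known.

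Scrublet (scanpy 1.11.5), run on each library, called 48 (1.09%) and 16 (0.540%) cells as doublets, which were removed. Values were scaled to 10000 per cell and logged, 2000 variable genes without members or other interferon genes were reduced to 30 components, and 20 nearest neighbours were clustered by Leiden at resolution 0.5 (igraph 0.11.9, scikit-learn 1.9.0, Python 3.11.15). A cluster was named when at least 3 and 60% of a class's markers were above 0 in 25% of its cells and over 3 times the median of the clusters, a threshold set after seeing the data. Lymphatic endothelial clusters were counted as endothelial-like. The log2 ratio compares class sums over class totals with 1 added to each sum, for genes with a sum of at least 100. That sum is over both libraries, for members and all other genes alike, so a gene low in 1 library can be measured through the other. Members are described in full in a class where they passed 1.5-fold there, plus the highest of each role group, and the others by range and count. The ratio script was tested on simulated data. Promoter sequences are from RefSeq, build GRCm38.p6. Alternatives to the clustering, scaling, filters, weight of single cells and member-rich range were computed, and those leaving out cells with macrophage markers, Myh11 or many members were added after seeing the data. With 1 library per group no p-value was computed.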

Additional observations from a re-analysis of the deposited data

Results flagged for a closer look

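The log2 ratio of Irf7 was −1.24 in cartilage or valve-like cells and 1.75 in macrophage-like cells. It is listed because the same contrast ran in opposite directions in 2 cell classes. Each direction rests on 1 library per group, and the difference between the classes was not tested. In cartilage or valve-like cells Irf7 was above 0 in 27 of 172 and 32 of 197 cells, with highest values of 8 and 15, and 5 and 9 cells held 50% of its sum.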

How the results depend on the processing

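Each group holds 1 library, so no library could be left out, and animals, dissection, digestion and sequencing cannot be told apart from treatment. No paired analysis was possible because each group holds 1 library. Of the alternative medians 59 stayed within 0.2 of the first value, a tolerance set after the data were seen, and 24 did not. The cause of each shift below was not tested, except that stricter sums, single-sex cells and left-out cells leave fewer members measured, and other member-rich ranges count other cells by construction. Counts of higher or lower members below are at 1.5-fold, out of the members measured in that setting and class. A lower count is therefore not by itself a smaller share. Of the 31 higher members of macrophage-like cells 5 were measured under every alternative other than leaving out cells with macrophage markers, Myh11 or many members, the Xist-only cells having the fewest, and 2 of these 5 passed 1.5-fold in each. In endothelial-like cells it was 2 of 4, in fibroblast-like cells 6 of 14 and in SMC-like cells 1 of 3. Over only those of these alternatives in which a member was measured, 24 of 31, 13 of 22, 8 of 17 and 2 of 5 passed 1.5-fold in each.

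With the members kept in the clustering, the number of higher members was 5 of 30 measured in mesenchymal and 1 of 16 in cartilage or valve-like cells. Lower members numbered 1 in SMC-like cells. At clustering resolution 1.0, the number of higher members was 2 of 11 measured in cartilage or valve-like cells. Member-rich cells were 16% of GLPG0187 mesenchymal and 1.90% and 1.80% of cartilage or valve-like cells. With genes scaled within each library, the median log2 ratio was 0.63 in cartilage or valve-like cells. Higher members numbered 9 of 18 measured in cartilage or valve-like cells. In Xist-only cells, the median log2 ratio was 0.57 in macrophage-like, 1.99 in endothelial-like, 0.57 in mesenchymal, 1.06 in fibroblast-like and 0.65 in cartilage or valve-like cells. Higher members numbered 3 of 7 measured in macrophage-like, 7 of 7 in endothelial-like, 11 of 25 in mesenchymal and 1 of 2 in cartilage or valve-like cells. The number of lower members was 0 in cartilage or valve-like cells. Member-rich cells were 0% of vehicle endothelial-like, 10.1% of vehicle mesenchymal, 10.4% of GLPG0187 fibroblast-like and 0% and 2.50% of cartilage or valve-like cells. In Y-only cells, the median log2 ratio was 0.90 in endothelial-like, 0.35 in fibroblast-like and 0.63 in cartilage or valve-like cells. Higher members numbered 13 of 16 measured in endothelial-like, 1 of 29 in mesenchymal, 10 of 28 in fibroblast-like, 7 of 14 in cartilage or valve-like and 3 of 19 in SMC-like cells. The number of lower members was 2 in fibroblast-like and 1 in SMC-like cells. Member-rich cells were 18.2% of vehicle mesenchymal cells. With median-of-ratios scaling, the number of higher members was 5 in mesenchymal cells. With sums of at least 30, the number of higher members was 4 in mesenchymal, 7 in cartilage or valve-like and 10 in SMC-like cells. With sums of at least 300, the median log2 ratio was 1.24 in macrophage-like and 0.75 in endothelial-like cells. Higher members numbered 4 in endothelial-like, 2 in cartilage or valve-like and 3 in SMC-like cells. The number of lower members was 0 in cartilage or valve-like cells. With values held to at most 3 per cell, the median log2 ratio was 1.08 in macrophage-like, 0.82 in endothelial-like and 0.10 in cartilage or valve-like cells. Higher members numbered 0 in cartilage or valve-like and 2 in SMC-like cells. The number of lower members was 1 in SMC-like cells. By the share of cells above 0, the median log2 ratio was 0.87 in macrophage-like, 0.61 in endothelial-like, 0.47 in fibroblast-like and 0.098 in cartilage or valve-like cells. Higher members numbered 13 in endothelial-like, 1 in mesenchymal, 0 in cartilage or valve-like and 3 in SMC-like cells. The number of lower members was 0 in cartilage or valve-like cells. Without cells holding 2 or more macrophage markers, the number of higher members was 4 in mesenchymal cells. Without cells holding Myh11, the median log2 ratio was 1.58 in endothelial-like cells. Higher members numbered 9 in endothelial-like and 7 in mesenchymal cells. Member-rich cells were 30% of GLPG0187 endothelial-like and 11.1% of GLPG0187 fibroblast-like cells. Without member-rich cells, the median log2 ratio was 0.37 in macrophage-like, 0.72 in endothelial-like, 0.50 in fibroblast-like, 0.031 in cartilage or valve-like and −0.17 in SMC-like cells. Higher members numbered 7 in macrophage-like, 11 in endothelial-like, 0 in mesenchymal, 11 in fibroblast-like, 0 in cartilage or valve-like and 1 in SMC-like cells. The number of lower members was 2 in cartilage or valve-like and 3 in SMC-like cells. With at least 3 core members, member-rich cells were 67.4% and 33% of macrophage-like, 41% and 19.2% of endothelial-like, 37.8% and 32% of mesenchymal, 21% and 8.88% of fibroblast-like, 18% and 16.2% of cartilage or valve-like and 3.67% and 2.24% of SMC-like cells. With at least 8 core members, member-rich cells were 23.5% and 4.95% of macrophage-like, 8.07% and 0.962% of endothelial-like, 6.26% and 3.94% of mesenchymal, 2.32% and 1.17% of fibroblast-like, 2.91% and 1.52% of cartilage or valve-like and 0.533% and 0% of SMC-like cells. With each cell thinned to 12000 values, member-rich cells were 16.4% and 11.8% of mesenchymal cells.

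Among single members that had passed 1.5-fold 12 values turned negative. At clustering resolution 1.0 Isg15 was −0.77 in cartilage or valve-like cells. In Y-only cells Ifit3 was −0.29 in fibroblast-like and Cmpk2 was −0.0018 in fibroblast-like cells. With values held to at most 3 per cell Ifit1 was −0.092 in cartilage or valve-like, Ifit3 was −0.021 in cartilage or valve-like and Ifit3 was −0.030 in SMC-like cells. By the share of cells above 0 Ifit3 was −0.19 in cartilage or valve-like and Ifit3 was −0.24 in SMC-like cells. Without member-rich cells Herc6 was −0.030 in macrophage-like, Ifit1 was −0.22 in SMC-like, Ifit3 was −0.69 in SMC-like and Irf7 was −0.047 in SMC-like cells. Raw depth is unknown, so what it limits cannot be stated, and members with low sums, such as the 9 in macrophage-like cells with vehicle sums under 50, have the least certain ratios.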
